A study of Homo sapiens with 28 samples.

Results

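The genes described here are 33 genes of cholesterol and fatty acid synthesis, chosen by name and matched to the deposited expression table by Ensembl gene ID. They are 33 of the 22391 genes in that table, and 29 of them also hold 218 of the 100814 deposited splicing events. The 7 genes of the mevalonate pathway are HMGCS1, MVK, PMVK, MVD, IDI1, FDPS and ACAT2. The sterol branch has 11, namely FDFT1, SQLE, LSS, CYP51A1, TM7SF2, MSMO1, NSDHL, HSD17B7, EBP, SC5D and DHCR7. Another 7, INSIG1, INSIG2, SREBF1, SREBF2, SCAP, STARD4 and TMEM97, act in sterol sensing or transport. The 8 of the fatty acid branch are FASN, SCD, ACACA, ACLY, ELOVL6, FADS1, FADS2 and ACSS2. The rule itself uses no measured value, but the members were chosen with earlier results of these data known. Their shares and medians, given below beside those of all genes, are therefore descriptive.

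Cells build cholesterol from acetyl-CoA, first through the mevalonate pathway to farnesyl diphosphate and then through squalene and a chain of sterol intermediates. Fatty acid synthesis draws on the same acetyl-CoA. Most of these enzymes are under the control of the SREBP transcription factors, which SCAP escorts out of the endoplasmic reticulum when membrane sterol is low and which INSIG proteins hold back when it is high. MBNL1, the targeted gene of the study, encodes a protein that binds pre-mRNA and regulates alternative splicing.

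The study asked which transcripts depend on MBNL1 in leukemia with a rearranged MLL gene, and sequenced RNA from 28 libraries of MOLM13 and MV4;11, acute myeloid leukemia lines that both carry an MLL fusion. Cells received a lentiviral short hairpin RNA against MBNL1, shMBNL1-64 (sh64) or shMBNL1-65 (sh65), or the non-targeting hairpin shNT. Each line is a single established cell line, every library comes from cells that received a hairpin vector, and transduced cells were isolated by puromycin selection or by sorting. The replicates were not all stated to be separate cultures, so p-values measure the spread between these libraries, which may be technical.

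There were 9 groups. In MOLM13 at day 4 there were 3 libraries with sh64 and 3 with shNT, and in MOLM13 at day 12 again 3 with sh64 and 3 with shNT. MOLM13 with sh65 had 4 libraries, set against a second shNT set of 3. MV4;11 had 3 libraries each with sh64, sh65 and shNT, so that both hairpins share their controls there. For the libraries with sh65 and all those of MV4;11, no source used here gives a day. The day 12 libraries were sequenced on another instrument with controls of their own, and levels are compared within each of these sets.

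MBNL1 itself was measured at 2.94, 2.96 and 3.804 RPKM (reads scaled to transcript length and library size) with sh64 in MOLM13 at day 4, against 18.8, 19.97 and 28.6 RPKM with shNT. Its mean was 14.4% of control there, 16.7% with sh64 at day 12, 16.6% with sh64 in MV4;11, 53.3% with sh65 in MV4;11 and 67.3% with sh65 in MOLM13, where it was not called. The relative sequencing depth of the libraries, recovered from the step between low values, ran from 0.28 to 1 of the deepest, and the shallowest were replicate 3 of sh64 (0.280) and replicate 3 of shNT (0.325) in MOLM13 at day 4. The myeloid markers LYZ and FLT3 had group means of 680 to 3771 and 104 to 234 RPKM, while the B cell marker MS4A1, the T cell marker CD3E and the epithelial marker EPCAM had group means of at most 0.0875 RPKM. Myeloid markers were called in both directions with sh64. LYZ averaged 3771 RPKM with sh64 against 801 RPKM with shNT in MOLM13 at day 12, and 3744 against 1318 RPKM at day 4, higher in both, whereas in MV4;11 it was lower, at 1404 against 2313 RPKM. FLT3 averaged 107 RPKM with sh64 against 187 RPKM with shNT at day 12 and 104 against 212 RPKM at day 4, both called lower, and 155 against 234 RPKM in MV4;11, not called. CSF1R was called higher at day 12 and in MV4;11, while CD33, HOXA9 and MEIS1 were not called in the sh64 comparisons. The part of these markers in the results below was not tested. CD3D, which reached a group mean of 10.0 RPKM, was called higher in MV4;11 with either hairpin.

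Among the members, the splicing event that moved most reproducibly was a short exon of ACLY, ATP citrate lyase, the enzyme that splits cytosolic citrate into the acetyl-CoA used by both pathways. The exon lies at chr17:40052873-40052902 on the minus strand of GRCh37, is 30 bases long, and is annotated throughout as coding sequence. It is shown with 60 bases of intron on each side, 5′ to 3′ on the transcript strand, with the exon in capitals.
ACLY exon: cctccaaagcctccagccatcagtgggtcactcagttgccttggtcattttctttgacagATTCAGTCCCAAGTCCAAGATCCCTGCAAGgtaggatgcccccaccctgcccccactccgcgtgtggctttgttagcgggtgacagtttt
A second cassette exon, in STARD4, a carrier of cholesterol between membranes, lies at chr5:110837660-110837786 on the minus strand of GRCh37 and is 127 bases long, a length that is not a multiple of 3. It is annotated as coding in the protein-coding transcripts, and it is shown in the same way.
STARD4 exon: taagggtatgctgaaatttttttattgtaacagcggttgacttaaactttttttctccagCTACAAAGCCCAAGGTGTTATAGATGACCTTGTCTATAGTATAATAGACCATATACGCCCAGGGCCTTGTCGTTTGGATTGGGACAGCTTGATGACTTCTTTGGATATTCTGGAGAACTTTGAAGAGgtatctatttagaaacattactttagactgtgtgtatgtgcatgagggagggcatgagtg
MBNL proteins bind RNA at short motifs around a GC step, searched here on the transcript strand as CGCC or CGCT, and in the form that starts with a T, as TGCC or TGCT. The 100 intronic bases after the ACLY exon held 3 matches and those after the STARD4 exon held 0. Over the 100 bases after the donor sites of 10601 cassette exons in the splicing table, the median was 1 and 14% held 3 or more. The 100 intronic bases before the exon held 1 match in ACLY and 1 in STARD4, and the exon itself held 0 in ACLY and 1 in STARD4. A match is a description of the letters and shows no binding.

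Promoters were searched for 3 motifs on either strand in the whole promoter window of each RefSeq start (GRCh38.p14), for the 29 members that matched that table. A gene was counted when any of its windows held the motif. The windows are longer than the sequences printed below, which are cut to their first 250 bases. The sterol regulatory element TCACNCCAC was found in 1 of 29, SREBF2, which is 3.4% against 1.39% of 27305 genes. CCAAT, the box bound by NF-Y, was found in 22 of 29 members, or 75.9%, against 39.7% of all genes and 43.1% of the genes tested for expression. The E-box CACGTG was found in 4 members, LSS, SC5D, INSIG1 and SCAP, which is 13.8% against 13.6% of the genes tested. The 4 windows shown are SREBF2, with the only sterol element, and ACSS2, HSD17B7 and SC5D, members with a CCAAT box that fell with sh64 in MV4;11. Capitals mark the motif matches, which appear as ATTGG where the CCAAT lies on the other strand, and all 4 windows are on the plus strand.
SREBF2, chr22:41832855-41833104: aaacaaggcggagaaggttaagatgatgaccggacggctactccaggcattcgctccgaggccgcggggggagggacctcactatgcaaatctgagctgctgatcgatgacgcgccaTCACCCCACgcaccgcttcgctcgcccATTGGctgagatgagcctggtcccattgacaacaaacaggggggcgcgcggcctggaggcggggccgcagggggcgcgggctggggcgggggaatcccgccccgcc
ACSS2, chr20:34874739-34874988: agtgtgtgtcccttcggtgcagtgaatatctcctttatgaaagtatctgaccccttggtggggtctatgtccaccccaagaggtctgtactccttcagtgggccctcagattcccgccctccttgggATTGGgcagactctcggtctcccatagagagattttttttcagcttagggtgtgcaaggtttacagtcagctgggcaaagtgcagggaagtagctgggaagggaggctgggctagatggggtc
HSD17B7, chr1:162790452-162790701: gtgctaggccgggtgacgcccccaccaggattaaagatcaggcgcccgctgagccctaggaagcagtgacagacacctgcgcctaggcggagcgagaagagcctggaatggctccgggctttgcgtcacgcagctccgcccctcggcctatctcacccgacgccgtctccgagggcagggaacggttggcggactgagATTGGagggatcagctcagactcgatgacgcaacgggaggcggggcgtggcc
SC5D, chr11:121292521-121292770: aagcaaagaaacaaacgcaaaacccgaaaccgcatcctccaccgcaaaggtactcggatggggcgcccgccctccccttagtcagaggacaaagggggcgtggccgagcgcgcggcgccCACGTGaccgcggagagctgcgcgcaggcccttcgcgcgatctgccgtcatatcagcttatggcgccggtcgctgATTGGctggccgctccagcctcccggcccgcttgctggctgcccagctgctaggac

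Expression was compared on log2(RPKM + 1) with limma, and a gene was called when its unadjusted p was at most 0.01 and its change at least 1.5-fold on that scale, which understates the change of genes at low levels. Genes with a mean of at least 1 RPKM in either group were tested. This kept 31 of the 33 members in every comparison. CYP51A1, a sterol demethylase, lay between 0.052 and 0.371 RPKM and ELOVL6, a fatty acid elongase, between 0.26 and 1.15 RPKM, and neither was tested.

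**Figure D1:**
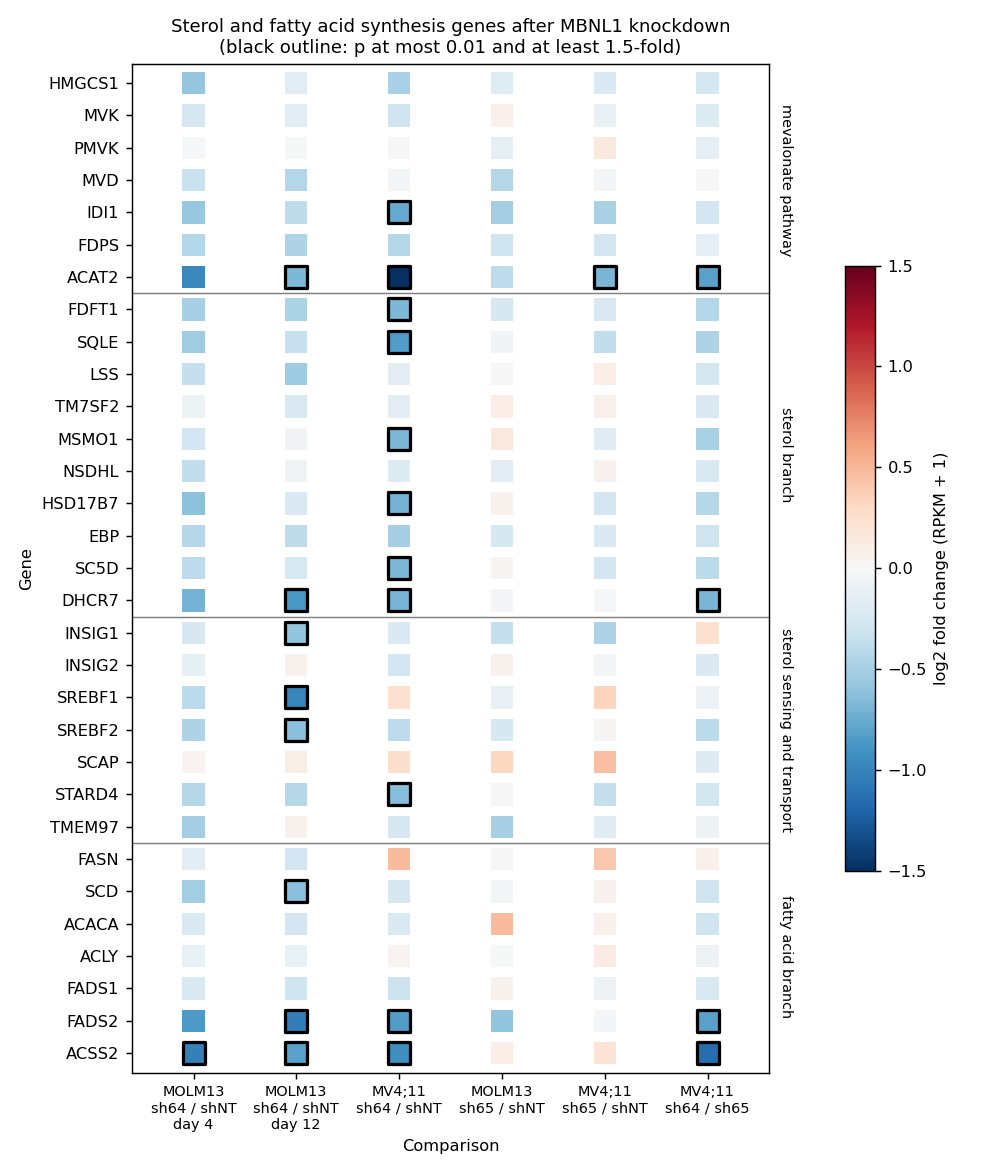
Log2 fold change of each of the 31 tested members (rows, by branch) in the knockdown comparisons (columns), on the log2(RPKM + 1) scale. The columns for sh64 hold mostly negative values, with 30, 28 and 26 of 31 members below 0 in MOLM13 at day 4, MOLM13 at day 12 and MV4;11, and the columns for sh65 are closer to 0.

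In MV4;11 with sh64, 11 of the 31 tested members fell and none rose (adjusted p between 0.00184 and 0.0395 by limma with Benjamini-Hochberg adjustment). Across all 10177 genes tested, 2.62% were called lower, and 2.37% were called lower with an adjusted p under 0.05 as well, a criterion that the same 11 members met. The members' median log2 fold change was -0.32, against 0.01 over all genes. In 20 members every sh64 library was below every shNT library, against 17.5% of all genes. The sterol branch accounted for 6 of the 11, with 10 of its 10 tested members below control on average and a median of -0.67. In 8 of these 10 every sh64 library was below every shNT library, while LSS and TM7SF2 overlapped. The mevalonate pathway had 2 of 7, sterol sensing and transport 1 of 7 and the fatty acid branch 2 of 7. In bulk RNA, fewer cells of a kind and less RNA per cell cannot be told apart.

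The largest fall was that of ACAT2, the cytosolic acetoacetyl-CoA thiolase that feeds the mevalonate pathway. It had 8.23, 8.35 and 8.91 RPKM with sh64 in MV4;11, against 28.3, 27.3 and 22.4 RPKM with shNT. The libraries of each hairpin lay close together, the sh64 libraries were far below, and the mean was 32.6% of control (log2 fold change -1.503 ± 0.12 SE, adjusted p = 0.00184 by limma). IDI1, the isomerase of isopentenyl diphosphate, had 5.94, 5.57 and 5.75 RPKM with sh64, against 10.8, 11.4 and 9.17 RPKM with shNT. It fell by 0.76 ± 0.11 on the log2 scale (adjusted p = 0.016 by limma), again with no overlap. Elsewhere in the mevalonate pathway the pattern was uneven. FDPS, which makes farnesyl diphosphate, had a log2 fold change of -0.43, under the 1.5-fold limit (adjusted p = 0.0395 by limma). MVD and PMVK, the decarboxylase and a kinase of the pathway, stood at 95.4% and 99.5% of control.

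In the sterol branch the first committed enzyme, the squalene synthase FDFT1, had 40.1, 42.4 and 42.5 RPKM with sh64 in MV4;11, against 68.5, 68.3 and 64.4 RPKM with shNT. SQLE, the squalene epoxidase and a rate-limiting step, had 22.4, 22.6 and 21.5 RPKM with sh64, against 44.3, 44.7 and 33.4 RPKM with shNT. Both fell without overlap, FDFT1 to 62.1% and SQLE to 54.3% of control, although shNT replicate 3 was the nearest control to the sh64 libraries in both. HSD17B7, the sterol ketoreductase whose promoter is printed above, had 2.77, 2.85 and 2.28 RPKM with sh64, against 5.40, 4.63 and 4.72 RPKM with shNT. MSMO1, the sterol methyl oxidase, had 3.30, 3.13 and 3.77 RPKM with sh64, against 5.34, 6.96 and 5.75 RPKM with shNT. SC5D, the lathosterol desaturase, had 1.29, 1.42 and 1.08 RPKM with sh64, against 2.70, 3.01 and 2.13 RPKM with shNT. These 3 genes are expressed at low levels and their libraries separated completely by hairpin, although without shNT replicate 2 MSMO1 was just under the fold limit (log2 fold change -0.57). DHCR7, which makes cholesterol from its last precursor, had 6.43, 6.52 and 6.28 RPKM with sh64, against 9.27, 11.3 and 12.8 RPKM with shNT. Its sh64 libraries were almost identical and its controls more scattered (log2 fold change -0.70 ± 0.13 SE, adjusted p = 0.0277 by limma). The cyclase LSS and the reductase TM7SF2 were not called and stood at 86.6% and 86.8% of control. LSS had 7.34, 6.50 and 7.11 RPKM with sh64, against 6.25, 7.68 and 10.3 RPKM with shNT. TM7SF2 had 5.89, 5.73 and 5.22 RPKM with sh64, against 5.08, 6.02 and 8.28 RPKM with shNT. Both overlapped, and shNT replicate 3 was the highest control in both. EBP, the sterol isomerase, stood at 68.1% (adjusted p = 0.0316 by limma), short of 1.5-fold on the log scale.

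In the fatty acid branch, ACSS2 and FADS2 were the called members in MV4;11 with sh64. ACSS2, which makes acetyl-CoA from acetate, had 4.18, 4.48 and 3.72 RPKM with sh64, against 8.68, 8.97 and 8.70 RPKM with shNT. FADS2, the desaturase at the entry to polyunsaturated fatty acid synthesis, had 2.76, 2.94 and 3.37 RPKM with sh64, against 5.45, 6.69 and 6.49 RPKM with shNT. Both separated completely by hairpin, ACSS2 at 47% and FADS2 at 48.7% of control, with log2 fold changes of -0.93 ± 0.10 and -0.84 ± 0.12 SE (adjusted p = 0.00743 and 0.0141 by limma). The fatty acid synthase FASN did not share this direction. It had 62.1, 55.5 and 58.6 RPKM with sh64, against 32.5, 35.9 and 63.1 RPKM with shNT (log2 fold change 0.47 ± 0.23 SE, adjusted p = 0.176 by limma). Replicate 3 of shNT was as high as the sh64 libraries and the groups overlapped. Without that replicate FASN was called higher (log2 fold change 0.76, adjusted p = 0.000333 by limma) and HMGCS1, the synthase at the start of the mevalonate pathway, was called lower (-0.64, adjusted p = 0.000393 by limma).

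Among the genes of sterol sensing and transport, STARD4 was called in MV4;11 with sh64. It had 1.31, 0.956 and 1.14 RPKM with sh64, against 2.94, 2.35 and 1.78 RPKM with shNT, and fell to 48.1% of control (adjusted p = 0.0395 by limma). The level is low, and the call was lost without sh64 replicate 2 (adjusted p = 0.161 by limma) and without shNT replicate 1 (log2 fold change -0.52). The transcription factor gene SREBF2, which mainly drives the sterol genes, had 22.7, 21.8 and 24.0 RPKM with sh64, against 27.3, 30.002 and 33.8 RPKM with shNT (log2 fold change -0.39 ± 0.11 SE, adjusted p = 0.0698 by limma). Its libraries did not overlap, but it did not pass the test. SREBF1, which mainly drives the fatty acid genes, had 6.31, 5.66 and 6.75 RPKM with sh64, against 4.22, 4.50 and 6.93 RPKM with shNT, and its groups overlapped (adjusted p = 0.324 by limma).

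**Figure D2:**
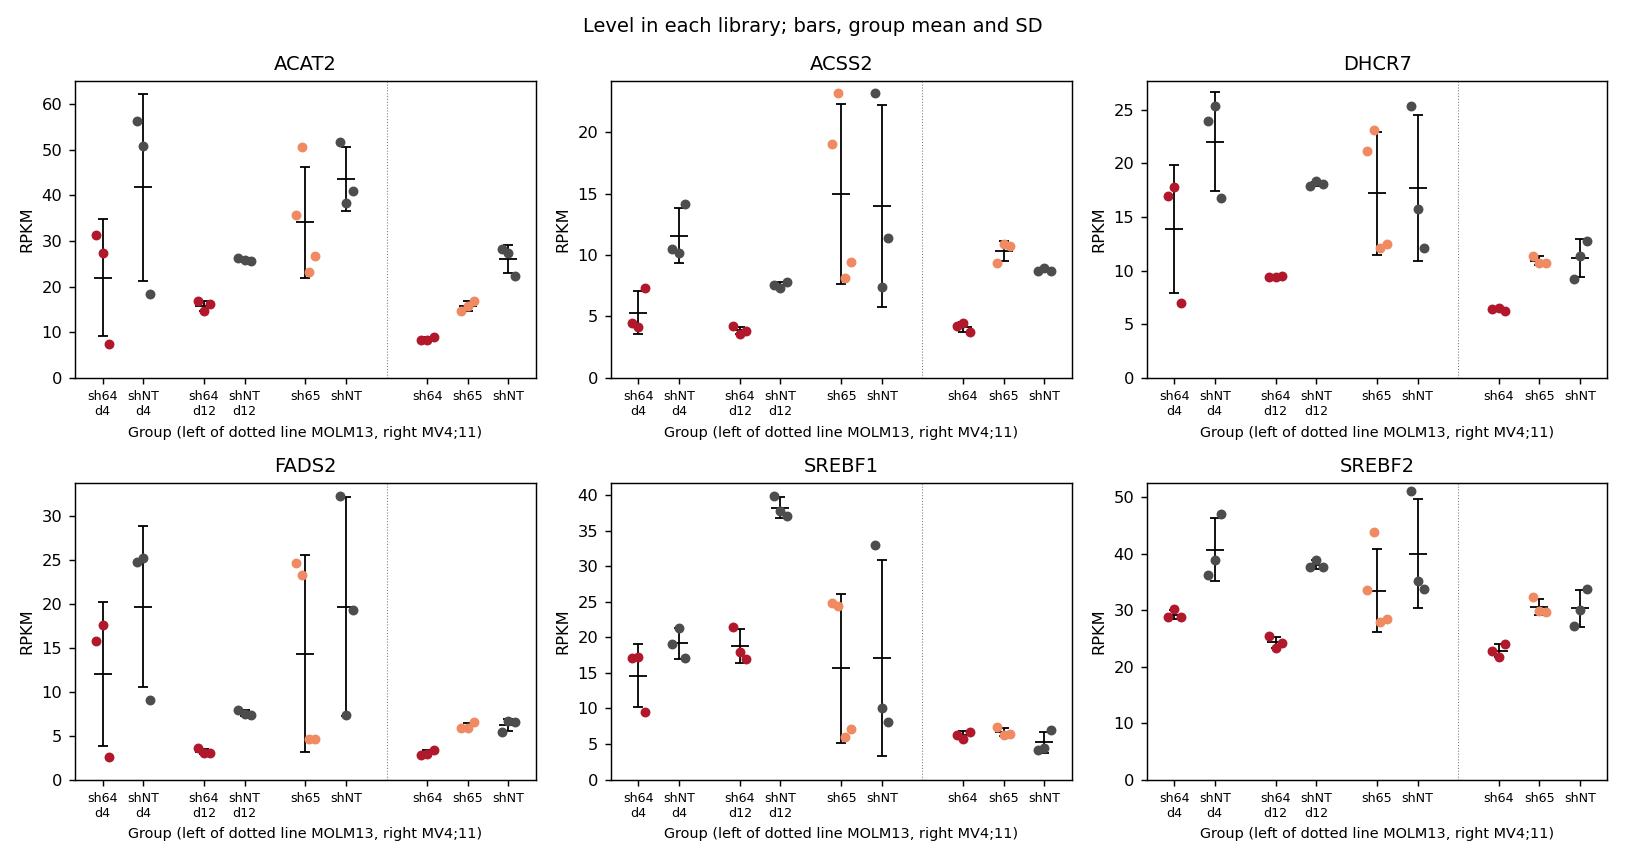
RPKM in every library (points) for ACAT2, ACSS2, DHCR7, FADS2, SREBF1 and SREBF2, with a panel per gene, the groups along the horizontal axis with knockdown left of its control, and bars for the group mean and SD. ACAT2 and DHCR7 with sh64 lie below their controls in MOLM13 at day 12 and in MV4;11, and at day 4 replicate 3 of each group is apart from the other two.

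In MOLM13 at day 12, 8 of the 31 tested members fell with sh64 and none rose, by either criterion. Across all 10094 genes tested, 2.25% were called lower, and 2.27% when an adjusted p under 0.05 replaced the unadjusted one. The members' median log2 fold change was -0.35, against 0.04 over all genes. Without regard to size, 24 members were lower at an adjusted p under 0.05, against 19.3% of all genes, and in 24 members every sh64 library was below every shNT library, against 23.7% of all genes. All 7 tested members of the fatty acid branch were among the 24 lower at an adjusted p under 0.05, with 8 of 10 in the sterol branch, 5 of 7 in the mevalonate pathway and 4 of 7 in sensing and transport.

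The called genes at day 12 included both SREBP genes. SREBF1 had 21.4, 17.98 and 16.9 RPKM with sh64, against 39.9, 37.7 and 37.1 RPKM with shNT, and its mean was 49.1% of control (log2 fold change -0.995 ± 0.08 SE, adjusted p = 5.8e-05 by limma). SREBF2 had 25.4, 23.3 and 24.2 RPKM with sh64, against 37.6, 38.9 and 37.7 RPKM with shNT (log2 fold change -0.63 ± 0.05 SE, adjusted p = 3.4e-05 by limma). Neither gene had a sh64 library anywhere near a control. INSIG1, the sterol-sensitive anchor of SCAP, had 16.07, 13.4 and 14.24 RPKM with sh64, against 23.4, 22.1 and 21.8 RPKM with shNT. It stood just past the limit of fold change, at -0.59 on the log2 scale, and was under it when any of sh64 replicate 2, sh64 replicate 3 or shNT replicate 1 was left out, with -0.54, -0.58 and -0.56 (adjusted p = 0.000255 with all libraries, by limma). SCAP itself had 20.2, 19.2 and 19.96 RPKM with sh64, against 18.6, 18.2 and 18.4 RPKM with shNT, slightly higher in every library and not called (adjusted p = 0.0635 by limma).

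Of the enzymes at day 12, FADS2 changed most, with 3.55, 2.96 and 3.02 RPKM with sh64, against 7.93, 7.41 and 7.31 RPKM with shNT (log2 fold change -1.04 ± 0.06 SE, adjusted p = 1.7e-05 by limma). DHCR7 had 9.38, 9.36 and 9.50 RPKM with sh64, against 17.9, 18.3 and 18.1 RPKM with shNT, with the smallest SE among the members called at day 12. It fell to 52% of control (log2 fold change -0.88 ± 0.04 SE, adjusted p = 4.1e-06 by limma). ACSS2 had 4.19, 3.57 and 3.83 RPKM with sh64, against 7.53, 7.35 and 7.82 RPKM with shNT. ACAT2 had 16.8, 14.6 and 16.12 RPKM with sh64, against 26.3, 25.9 and 25.7 RPKM with shNT. Both fell, ACSS2 to 51% and ACAT2 to 61.1% of control, as they did in MV4;11. SCD, the desaturase that makes oleate, had 29.9, 30.1 and 27.1 RPKM with sh64, against 46.9, 44.3 and 44.7 RPKM with shNT, and without sh64 replicate 3 its log2 fold change of -0.58 was under the limit (adjusted p = 7.0e-05 with all libraries, by limma).

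Several sterol genes that were called in MV4;11 were not called in MOLM13 at day 12, a difference that was not itself tested. FDFT1 had 39.1, 39.6 and 42.9 RPKM with sh64, against 58.2, 57.2 and 54.7 RPKM with shNT, and SQLE had 35.1, 38.6 and 34.7 RPKM with sh64, against 46.0, 44.6 and 48.2 RPKM with shNT. Their log2 fold changes were -0.48 and -0.35 (adjusted p = 0.000189 and 0.00128 by limma). MSMO1 had 3.804, 3.63 and 4.06 RPKM with sh64, against 3.82, 4.07 and 4.105 RPKM with shNT, and was at 95.7% of control with overlapping groups (adjusted p = 0.414 by limma). HMGCS1 had 7.41, 7.29 and 8.39 RPKM with sh64, against 8.21, 9.41 and 8.75 RPKM with shNT, which also overlapped. PMVK, INSIG2 and TMEM97, a sterol-responsive protein of the endoplasmic reticulum and lysosome, were at 99.4%, 107% and 105% of control.

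In MOLM13 at day 4, 30 of the 31 members were below control and the median log2 fold change was -0.41, against -0.0014 over all genes, but ACSS2 was the 1 member called, against 1.09% of all genes called lower. The call for ACSS2 was lost in 5 of the 6 fits that left out a library, all but the one without sh64 replicate 3. In 8 members every sh64 library was below every shNT library, against 8.24% of all genes. Replicate 3 of each hairpin stood apart from the other two. ACAT2 had 31.2, 27.3 and 7.34 RPKM with sh64, against 56.2, 50.9 and 18.4 RPKM with shNT. FADS2 had 15.8, 17.6 and 2.59 RPKM with sh64, against 24.8, 25.2 and 9.07 RPKM with shNT. Within each pair of the same number the sh64 library was the lower, and across pairs the sh64 libraries 1 and 2 exceeded the shNT library 3.

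Same-numbered libraries at day 4 deviated together over all genes, so the comparison was also made with the pair as a block. Then 5 members fell, ACSS2, ACAT2, HSD17B7, DHCR7 and FADS2, against 3.28% of all genes called lower (adjusted p = 0.0066, 0.0079, 0.0138, 0.0277 and 0.0342 by limma). Without regard to size, 16 members were lower at an adjusted p under 0.05 and none was higher, against 14.1% of all genes lower. In 25 of the 31 members sh64 was below shNT in each of the 3 pairs, against 32.9% of all genes. ACAT2 with sh64 was at 55.6%, 53.6% and 40.0% of its paired control. ACSS2 was at 42.7%, 40.5% and 51.7%, and DHCR7 at 70.6%, 69.9% and 41.7%. The size in pair 3 differed from that in the others, and with both libraries of pair 3 left out ACSS2, ACAT2 and HSD17B7 were called, 3 in all.

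HSD17B7 had 3.27, 3.06 and 1.95 RPKM with sh64 at day 4, against 6.11, 5.65 and 2.89 RPKM with shNT, so that shNT replicate 3 lay below the first 2 sh64 libraries. SREBF2 had 28.8, 30.1 and 28.7 RPKM with sh64, against 36.3, 38.8 and 47.0 RPKM with shNT, with no overlap (adjusted p = 0.0267 with the block, by limma, at a log2 fold change of -0.46). SREBF1 had 17.1, 17.2 and 9.49 RPKM with sh64, against 19.1, 21.4 and 17.1 RPKM with shNT, and was not called (adjusted p = 0.0762 with the block, by limma). Unlike ACAT2 and FADS2, SQLE and INSIG1 were highest in replicate 3. SQLE had 40.5, 39.1 and 65.4 RPKM with sh64, against 63.4, 51.7 and 98.5 RPKM with shNT. INSIG1 had 24.0, 26.2 and 55.0 RPKM with sh64, against 33.7, 33.4 and 53.1 RPKM with shNT, and its pair 3 had the other direction.

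**Figure D3:**
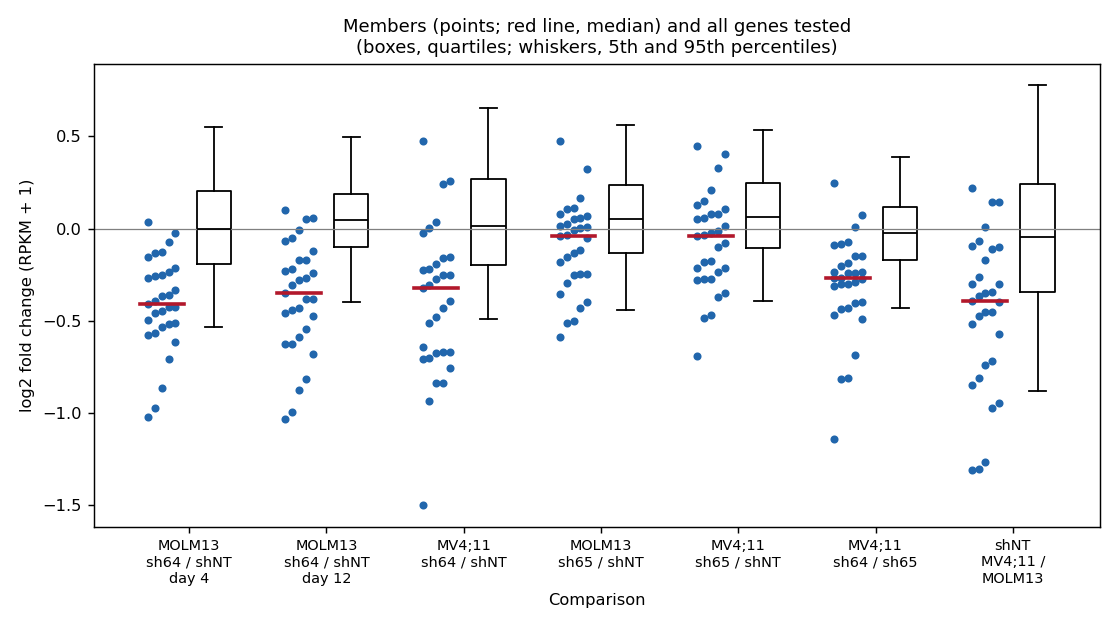
Distribution of log2 fold changes on the log2(RPKM + 1) scale in each comparison, with the tested members as points beside the quantiles of all tested genes. The members' medians are -0.41, -0.35 and -0.32 with sh64 in MOLM13 at day 4, MOLM13 at day 12 and MV4;11, and -0.04 with sh65 in either line.

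Whether the response at day 12 differed from that at day 4 was tested as an interaction, and 0 members were called, against 0.397% of all genes called in either direction, and 1 (TMEM97) had an unadjusted p under 0.05 by limma. With the pairs as a block SREBF1 was called, with a difference of -0.59 on the log2 scale (adjusted p = 0.0942 by limma), and with both libraries of pair 3 left out it was called at -0.77 (adjusted p = 0.0101 by limma). Without sh64 replicate 3 of day 4 alone SREBF1 was called at -0.85 (adjusted p = 0.13 by limma). Without shNT replicate 3 of day 4 alone HSD17B7 was called instead (0.67, adjusted p = 0.432 by limma). Day, instrument and control set cannot be told apart in this test. Whether the response to sh64 in MV4;11 differed from that in MOLM13 at day 4 was tested in the same way. Again 0 members were called, against 0.653% of all genes, and the largest differences were those of SREBF1 (0.65 ± 0.32 SE) and FASN (0.63 ± 0.40 SE), with an adjusted p of 0.9996 for both by limma. No member had an unadjusted p under 0.05 by limma in this test. As no day is known for MV4;11, line and day cannot be told apart in it. With both libraries of pair 3 left out ACAT2 was called, with a difference of -0.65 (adjusted p = 0.226 by limma).

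In MV4;11 with sh65, ACAT2 was the only member called, by either criterion, against 1.85% of all genes called lower and 1.04% with an adjusted p under 0.05. It had 14.6, 15.7 and 16.8 RPKM with sh65, against 28.3, 27.3 and 22.4 RPKM with the same shNT libraries as above. No libraries overlapped, and ACAT2 fell to 60.3% of control (log2 fold change -0.69 ± 0.12 SE, adjusted p = 0.0421 by limma). With the replicate number as a block, the adjusted p was 0.168. The members' median was -0.04, against 0.06 over all genes, and 6 members had every sh65 library below every shNT library, against 9.89% of all genes. ACSS2 had 9.37, 10.9 and 10.8 RPKM with sh65, against 8.68, 8.97 and 8.70 RPKM with shNT, and was not called. With shNT replicate 3 left out, 3 members were called, ACAT2 lower and FASN and SCAP higher.

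The hairpins were compared directly in MV4;11, where neither is a control. Of the 31 members, 4 were lower with sh64 than with sh65, by either criterion, and none was higher, against 1.83% of all genes called lower and 1.84% with an adjusted p under 0.05. These were ACSS2 (log2 difference -1.14), FADS2 (-0.82), ACAT2 (-0.81) and DHCR7 (-0.69), the genes that also fell with sh64 in MOLM13 at day 12. Without regard to size, 18 members were lower with sh64 at an adjusted p under 0.05, against 14.6% of all genes, among them 9 of 10 in the sterol branch. FADS2 had 2.76, 2.94 and 3.37 RPKM with sh64, against 5.90, 5.82 and 6.50 RPKM with sh65, whose libraries were level with shNT. DHCR7 had 6.43, 6.52 and 6.28 RPKM with sh64, against 11.4, 10.7 and 10.7 RPKM with sh65. ACAT2 had its 3 sh65 libraries between those of sh64 and shNT without touching either. The hairpins differ both in how much MBNL1 they leave and in sequence, and these cannot be told apart here.

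In MOLM13 with sh65 no member was called, against 1.48% of all genes called lower, and TMEM97 and SCAP were the 2 with an unadjusted p under 0.05 by limma. The median was -0.04, against 0.05 over all genes, and NSDHL was the only member with every sh65 library below every shNT library, against 5.75% of all genes. The libraries of a group differed widely, which limits what the lack of calls can show. FADS2 had 24.7, 23.3, 4.56 and 4.62 RPKM with sh65, against 32.3, 7.33 and 19.3 RPKM with shNT. SREBF1 had 24.9, 24.4, 6.04 and 7.13 RPKM with sh65, against 33.02, 10.1 and 8.15 RPKM with shNT. In both genes sh65 libraries 1 and 2 lay between the highest control and the others, and libraries 3 and 4 lay below the lowest control. ACAT2 had 35.7, 50.6, 23.3 and 26.8 RPKM with sh65, against 51.6, 38.4 and 40.9 RPKM with shNT, which overlapped. SCAP had 25.1, 21.2, 21.0 and 21.4 RPKM with sh65, against 19.4, 17.0 and 16.12 RPKM with shNT, with no overlap (log2 fold change 0.32 ± 0.12 SE). When the shNT library that is highest in FADS2 and SREBF1 was left out, 2 members were called, TMEM97 lower and ACACA higher (adjusted p = 0.0489 and 0.0152 by limma).

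The control cells of the lines differed in these genes as well. MV4;11 with shNT was set against the second MOLM13 shNT set, and 6 members were lower in MV4;11 and none higher, against 7.62% of all genes called lower. With an adjusted p under 0.05 there were 5, against 6.62% of all genes. The median log2 difference was -0.39, against -0.05 over all genes. The 6 were MVD (-1.27), FDPS (-0.95) and ACAT2 (-0.72) of the mevalonate pathway, LSS (-0.97) and EBP (-0.85) of the sterol branch, and FADS2 (-1.31, adjusted p = 0.0598 by limma). FDPS had 86.4, 88.7 and 84.4 RPKM in MV4;11, against 213, 117 and 188 RPKM in MOLM13, with no overlap and a far wider spread in MOLM13. MVD had 4.73, 5.55 and 8.53 RPKM in MV4;11, against 23.5, 9.35 and 18.6 RPKM in MOLM13, also without overlap. SREBF1 had 4.22, 4.50 and 6.93 RPKM in MV4;11, against 33.02, 10.1 and 8.15 RPKM in MOLM13, and missed the call (adjusted p = 0.0686 by limma). Lines, culture and sequencing run cannot be told apart in this comparison, and without the filter on low values 2 members were called. The call for LSS was lost without MV4;11 replicate 1 and that for ACAT2 without MV4;11 replicate 2 or 3, with log2 differences of -0.82, -0.76 and -0.62, and that for FADS2 in 4 of the 6 fits that left out a library.

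Splicing was read as the percent of junction reads that support each event (percent spliced in, PSI), and an event was called at an unadjusted p of at most 0.01 by limma with a difference over 10 percentage points. The 218 events of the members fell into 62 junction clusters, groups of events that share splice sites, with 77 retained introns and 75 cassette exons among the events. With sh64, 2 of 60 clusters were called in MOLM13 at day 4, against 3.49% of all clusters, 3 of 60 in MV4;11, against 3.5%, and 4 of 61 in MOLM13 at day 12, against 4.4%. With sh65, 0 of 60 were called in MOLM13, against 2.81%, and 0 of 60 in MV4;11, against 2.14%, where 9 and 6 clusters had an unadjusted p under 0.05 by limma. The shares in the members are therefore near those of all clusters, and the events below are described one by one.

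**Figure D4:**
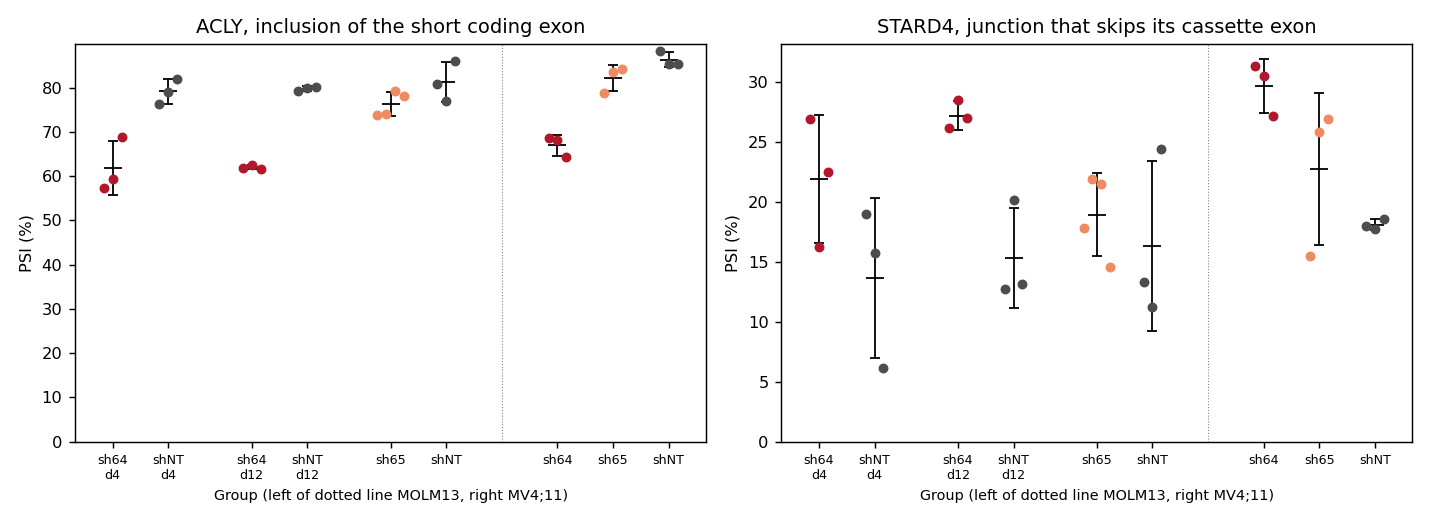
Percent spliced in of cassette-exon events of ACLY and STARD4 in every library (points), with bars for the group mean and SD and the groups along the horizontal axis, knockdown left of its control. For ACLY the sh64 libraries lie between 57.4% and 68.8% and the shNT libraries between 76.3% and 88.2%.

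The ACLY exon printed above was included less with sh64 in each of the 3 sh64 comparisons. Its inclusion was 61.8%, 62.4% and 61.7% with sh64 in MOLM13 at day 12, against 79.3%, 79.8% and 80.2% with shNT, a difference of -17.8 points (SE 0.34, adjusted p = 0.000487 by limma). It was 68.6%, 68.1% and 64.2% with sh64 in MV4;11, against 88.2%, 85.4% and 85.4% with shNT, a difference of -19.4 points (SE 1.59, adjusted p = 0.0435 by limma). In MOLM13 at day 4 it was 57.4%, 59.3% and 68.8% with sh64, against 76.3%, 79.1% and 82.0% with shNT, a difference of -17.3 points (adjusted p = 0.317 by limma). No sh64 library reached a control in any of the 3 comparisons. At day 4 the call for this event, read at the junction before the exon, was lost when any library but sh64 replicate 3 was left out (adjusted p = 0.466 to 0.569 by limma). The event that stands for the cluster at day 4 is the junction after the exon. It differed by -18.4 points (adjusted p = 0.184 by limma, and 0.227 with the pairs as a block). With sh65 in MV4;11 inclusion was 78.8%, 83.5% and 84.3%, below each control and above each sh64 library, but the difference of -4.15 points did not pass (adjusted p = 0.968 by limma). With sh65 in MOLM13 it was 73.8%, 74.1%, 79.3% and 78.0%, against 80.9%, 77.1% and 86.0% with shNT, which overlapped. The level of ACLY was 92% of control at day 12 and 103% in MV4;11, with no call. It had 110, 108 and 113 RPKM with sh64 at day 12, against 119, 121 and 120 RPKM with shNT, and 112, 112 and 118 RPKM with sh64 in MV4;11, against 108, 111 and 114 RPKM with shNT.

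For STARD4 the junction that skips the printed exon was called higher with sh64 in 2 comparisons. It took 26.2%, 28.5% and 27.0% with sh64 in MOLM13 at day 12, against 12.7%, 20.2% and 13.2% with shNT, a difference of 11.9 points (adjusted p = 0.174 by limma). In MV4;11 it took 31.4%, 30.5% and 27.1% with sh64, against 18%, 17.8% and 18.6% with shNT, a difference of 11.6 points (adjusted p = 0.0843 by limma). The groups did not overlap in these 2 comparisons, neither difference passed after adjustment, and the call at day 12 was lost when any library but shNT replicate 2 was left out (adjusted p = 0.337 to 0.357 by limma). STARD4 was expressed at 0.956 to 1.74 RPKM in these sh64 libraries, so the depth behind each value is low, and it is not known in reads. At day 4 the junction took 26.9%, 16.3% and 22.5% with sh64, against 19.0%, 15.7% and 6.15% with shNT, which overlapped, and the difference of 8.27 points was not called (adjusted p = 0.827 by limma). With sh65 in MV4;11 the junction took 15.5%, 25.8% and 27.0%, from below the shNT libraries to just under those of sh64.

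HMGCS1, the cytosolic synthase that makes HMG-CoA, has a cassette exon of 59 bases in its 5′ untranslated region, at chr5:43307868-43307926 on the minus strand of GRCh37. Its inclusion was first read at the junction after the exon. There it was 40.5%, 41.0% and 42.3% with sh64 in MV4;11, against 68.4%, 64.6% and 56.1% with shNT, a difference of -21.8 points (adjusted p = 0.187 by limma). In MOLM13 at day 12 it was 50.3%, 41.3% and 41.7% with sh64, against 57.5%, 62.3% and 63.0% with shNT, a difference of -16.5 points (adjusted p = 0.168 by limma). The sh64 libraries were the lower in these 2 comparisons without overlap. The junction cluster was called in MV4;11 and not at day 12, where the event that stands for it differed by 8.29 points, under the limit. At day 4 inclusion was 53.2%, 48.7% and 46.8% with sh64, against 52.2%, 47.9% and 63.9% with shNT, which overlapped, and the difference of -5.12 points was not called (adjusted p = 0.906 by limma). The call in MV4;11 was lost without any 1 of the sh64 libraries or shNT replicate 2 (adjusted p = 0.364 to 0.418 by limma). With sh65 in MV4;11 inclusion at that junction was 55.8%, 54.8% and 52.9%, between the other groups. The junction before the exon did not share this pattern in MV4;11. It averaged 32.8% with sh64 and 42.5% with sh65, against 34.1% with shNT, differences of -1.32 and 8.40 points, neither called. At day 12 it was called lower with sh64, by -15.4 points (adjusted p = 0.158 by limma). The loss of the exon in MV4;11 therefore rests on 1 of its 2 junctions. The 100 intronic bases after this exon held 3 of the MBNL motifs named above, as those after the ACLY exon did. The 100 intronic bases before it held 1, and the exon itself held 1.

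A cassette-exon event of FDPS averaged 65.1% with sh64 at day 12, against 75.7% with shNT, and was called (-10.6 points, adjusted p = 0.124 by limma). Its cluster was not called, since another event stands for it, and in MV4;11 with sh64 the difference was -0.13 points. Other clusters called in 1 comparison each concerned SREBF1 and ACACA, the acetyl-CoA carboxylase. Retention of an intron late in SREBF1 was 80.4%, 87.5% and 76.5% with sh64 in MOLM13 at day 4, against 66.3%, 66.7% and 61.5% with shNT, a difference of 16.6 points (adjusted p = 0.301 by limma). A junction of a cassette-exon event near the start of SREBF1 took 67.5%, 75.2% and 78.9% with sh64 at day 12, against 59.6%, 52.9% and 55.2% with shNT, a difference of 17.9 points (adjusted p = 0.184 by limma). An ACACA junction near the start of the gene took 74.1%, 68.3% and 70.8% with sh64 at day 12, against 82.9%, 78.9% and 85.4% with shNT, a difference of -11.3 points (adjusted p = 0.191 by limma). Each of these groups separated without overlap and none passed after adjustment over all events. The SREBF1 intron call was lost without sh64 replicate 1 or any shNT library (adjusted p = 0.44 to 0.517 by limma), the call for this SREBF1 junction near the start without any library but sh64 replicate 1 (adjusted p = 0.275 to 0.371 by limma), and the ACACA call without sh64 replicate 2 or 3 or shNT replicate 1 or 3 (adjusted p = 0.341 to 0.385 by limma).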

How the data were processed

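RNA-seq of 28 libraries of MOLM13 and MV4;11 cells in 9 groups was analysed, each library assigned from its label. The 3 first MOLM13 shNT libraries served as controls for sh64 at day 4 and the other 3, in columns without a replicate number, for sh65. The authors aligned reads to hg19 (GRCh37) with STAR and deposited gene levels as RPKM made with AltAnalyze, and splicing events as PSI, a fraction from 0 to 1 of the reads over competing junctions, made with MultiPath-PSI. The deposited values were not rescaled. Low RPKM values fall on multiples of a step per library, which gives relative depth only, and absolute depth is unknown, so no counting interval is given.

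Moderated linear models (limma 3.58.1 in R 4.3.3) were fitted across all genes on log2(RPKM + 1), for genes with a mean of at least 1 RPKM in either group, and across all splicing events detected in over 50% of the libraries of each group. All p-values are two-sided and adjusted by Benjamini-Hochberg over all features. A gene was called at p of at most 0.01 and 1.5-fold, an event at p of at most 0.01 and over 10 percentage points, and the event of lowest p stood for its junction cluster. Genes named are members, in order of role, with those called in a comparison given in full. The members and the gene lists were chosen with earlier results of these data known. The scripts were tested on simulated data.

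Same-numbered libraries were checked for shared deviations from their group means. At day 4 the correlations over genes were 0.848, 0.799 and 0.882, so the numbers pair those libraries, while in the other comparisons none of the sets had every pair above 0.1. Alternatives were a pseudocount of 0.1, no filter, upper-quartile scaling, a variance trend, a replicate block, all 6 shNT libraries as controls, a larger PSI difference, PSI in every library, each library left out, and, chosen after seeing the data, pair 3 of day 4 left out. Promoters were matched by symbol in RefSeq (GRCh38.p14) for 29 of the 33 members, all but FDFT1, SQLE, ACAT2 and FASN. Python 3.11.15 was used for sequences and figures.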

Additional observations from a re-analysis of the deposited data

Results flagged for a closer look

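In MOLM13 with sh65, SCAP, the escort of the SREBP proteins, had 25.1, 21.2, 21.0 and 21.4 RPKM, and replicate 1 stood apart from the other 3. The gap from that library to its neighbour was 0.884 of the range of the group, a gap that chance gives in at most about 1 of 20 groups of this size. All 33 members were checked, and such a gap can arise by chance among so many. SCAP was higher than in every shNT library in all 4.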

How the results depend on the processing

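No called member changed direction under any alternative run. Of the single-gene results of called members, 355 stayed on their side of the threshold, 27 were weaker and 7 stronger, and for events 101 stayed and 92 were weaker. Without the filter on low values 0 members were called in MOLM13 at day 4 in place of 1, and 2 between the control lines in place of 6. The cause was not tested. With both day 4 libraries of pair 3 left out the counts were 3 at day 4, 1 for day 12 minus day 4 and 1 for MV4;11 minus MOLM13. With a replicate block, 5 members were called at day 4 and 1 for day 12 minus day 4, and 4 splicing clusters at day 4 and 1 with sh65 in MV4;11. The 4 clusters at day 4 were the ACLY exon, the SREBF1 intron, and alternative donor sites of STARD4 and FDPS. The block changed the member calls of no other comparison at the unadjusted threshold, and the pairing had no support outside day 4. No paired analysis was possible because the control columns carry no number for sh65 in MOLM13 and for the control lines. With a PSI difference over 0.2, clusters called were 0 at day 4, 1 in MV4;11 with sh64 and 0 at day 12. With each library left out in turn, members called ranged over 0 to 1 at day 4, 0 to 2 with sh65 in MOLM13, 10 to 13 with sh64 and 1 to 3 with sh65 in MV4;11, 6 to 8 at day 12, 4 to 8 between the control lines, 4 to 4 between hairpins, 0 to 1 for day 12 minus day 4 and 0 to 0 for MV4;11 minus MOLM13. Clusters called ranged over 1 to 3, 0 to 1, 2 to 4, 0 to 2 and 1 to 7 (day 4, sh65 in MOLM13, sh64 and sh65 in MV4;11, day 12), with 7 without sh64 replicate 1 and 1 without sh64 replicate 3 or shNT replicate 1 at day 12. The members' median stayed below 0 in every sh64 comparison, from -0.49 to -0.20 at day 4, -0.38 to -0.30 at day 12 and -0.42 to -0.29 in MV4;11. Absolute depth is not known, which limits what can be said of low genes such as STARD4 and SC5D.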

Other observations

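Lists of other lipid genes were tested in the same fits. Of 7 tested genes of other sterol and isoprenoid synthesis, 0 were called in any knockdown comparison, and their median log2 fold changes with sh64 were -0.03 in MOLM13 at day 4, 0.10 at day 12 and -0.25 in MV4;11. Of 16 tested genes of SREBP processing and sterol transport, 0 were called with sh64, and the lysosomal lipase LIPA was called lower with sh65 in MV4;11 (21.4 ± 0.394 against 34.8 ± 7.66 RPKM with shNT, SD, n = 3 each, adjusted p = 0.0803 by limma). Among other genes of fatty acid synthesis and elongation, ACSL3, which activates long-chain fatty acids, was called lower with sh64 in each of the 3 comparisons. It averaged 5.52 ± 0.974 RPKM with sh64, against 12.2 ± 1.48 RPKM with shNT, in MOLM13 at day 4 (SD, n = 3 each, adjusted p = 0.181 by limma), 8.78 ± 0.565 RPKM with sh64, against 17.0 ± 0.828 RPKM with shNT, at day 12 (adjusted p = 2.3e-05 by limma), and 3.94 ± 0.251 RPKM with sh64, against 8.05 ± 1.00 RPKM with shNT, in MV4;11 (adjusted p = 0.0134 by limma).

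In the same list ME1, the cytosolic malic enzyme that supplies NADPH, was called higher with sh64 in MV4;11 (log2 fold change 0.74, adjusted p = 0.0225 by limma) and in MOLM13 at day 12 (0.60, adjusted p = 0.000163 by limma). This list had 16 genes tested in MV4;11 and 17 at day 12, with no call but those of ACSL3 and ME1 in these comparisons. Of the LXR targets and efflux genes, RXRA, the partner receptor of LXR, was called higher in the same comparisons (0.81 and 0.60, adjusted p = 0.0335 and 3.0e-05 by limma), and ABCA1, the cholesterol efflux pump, in MV4;11 (0.73, adjusted p = 0.0189 by limma). The median log2 fold change of that list was 0.32 over 7 tested genes in MV4;11 and -0.008 over 8 at day 12, with no other call there. Among genes of fatty acid oxidation, CPT1A, the mitochondrial gatekeeper, averaged 31.6 ± 3.02 RPKM with sh64 at day 12, against 15.4 ± 0.877 RPKM with shNT (SD, n = 3 each, adjusted p = 3.5e-05 by limma), and the receptor PPARD was called lower there (-0.66, adjusted p = 2.3e-05 by limma). SLC25A20, the carnitine carrier, was called lower with sh64 in MV4;11 (-0.68, adjusted p = 0.0189 by limma). The median log2 fold change of the oxidation genes was 0.07 over 12 tested at day 12 and -0.02 over 11 in MV4;11, with no other call there.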
